A study of Arabidopsis thaliana with 8 samples.

Results

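The cell cycle of Arabidopsis thaliana is driven by cyclin-dependent kinases (CDKs), and the transcripts of 41 of their genes and regulators are described here among the 36799 genes of the deposited count table. They were taken by locus code, among them AT1G44110 (CYCA1-1), AT4G37490 (CYCB1-1), AT4G34160 (CYCD3-1), AT3G48750 (CDKA-1), AT3G54180 (CDKB1-1), AT2G32710 (KRP4) and AT5G04470 (SIM). Names carry a hyphen as in UniProt, where RefSeq writes a semicolon. The members fall into 7 A-type cyclins, 9 B-type cyclins, 10 D-type cyclins, 5 CDKs (CDKA-1 and the 4 CDKB genes), 7 KRP inhibitors and 3 inhibitors of the SIM/SMR family. All seedlings were 10 days old and were kept for 4 h on ½ MS medium with 25% PEG8000 (Dehydration) or on the same medium without it (Mock), in enap1-1enap2 and in the wild type Col-0. The enap1-1enap2 double mutant has a CRISPR/Cas9 deletion allele of ENAP1 crossed with T-DNA insertions in the first exon of ENAP2, and a single such line was sequenced. Each of the 4 groups has 2 libraries from whole seedlings, with 24007691 to 48279415 counts per library, and the labels do not say whether the replicates came from separate cultures, so p-values measure the spread between these libraries only. Fewer cells of a type and less RNA per cell cannot be told apart in such bulk samples.

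A CDK is active only when bound to a cyclin. D-type cyclins bind CDKA-1 to start the cycle in response to hormones and sugar, A-type cyclins act in S phase and at its exit, and B-type cyclins together with the plant-specific CDKB kinases act at entry into mitosis. KRP and SIM/SMR proteins bind these complexes and inhibit them, and SIM/SMR proteins are known for switching dividing cells to endoreplication. Transcripts of mitotic cyclins peak shortly before division, through promoter elements read by MYB3R factors, so their level in a whole seedling is often used as a proxy for dividing cells.

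Dehydration lowered most of the cyclins in both genotypes, with little change in the kinase CDKA-1, and no class of inhibitors rose as a whole. Levels are given in CPM, counts relative to the library total scaled by TMM factors, and changes as log2 fold changes ± SE from edgeR's quasi-likelihood test. "Rose" and "fell" mean an adjusted p under 0.05 over the 21614 genes tested. A 2-fold call also needs an unadjusted p under 0.01 and a log2 fold change above 1 or below -1. Of the 40 members that could be tested, 20 fell and 2 rose in enap1-1enap2, where 32.4% of all genes tested fell and 32.2% rose. In Col-0, 28 members fell and 1 rose, against 30.0% and 29.7% of all genes. The median log2 fold change of the members was -0.49 in enap1-1enap2 and -0.64 in Col-0, while the median over all genes was -0.01 and -0.03. Past the 2-fold call, 3 members fell in enap1-1enap2 (14.1% of all genes fell past it) and 8 in Col-0 (11.7% of all genes), and none rose (12.6% and 10.0% of all genes rose past it). The counts rest partly on 1 library and on the scaling: 13 members fell in enap1-1enap2 without replicate 1 of its Dehydration group, 5 fell past the 2-fold call there without replicate 2 of that group, and with upper quartile scaling or library size alone 5 fell past it in enap1-1enap2 and 14 in Col-0.

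**Figure D1:**
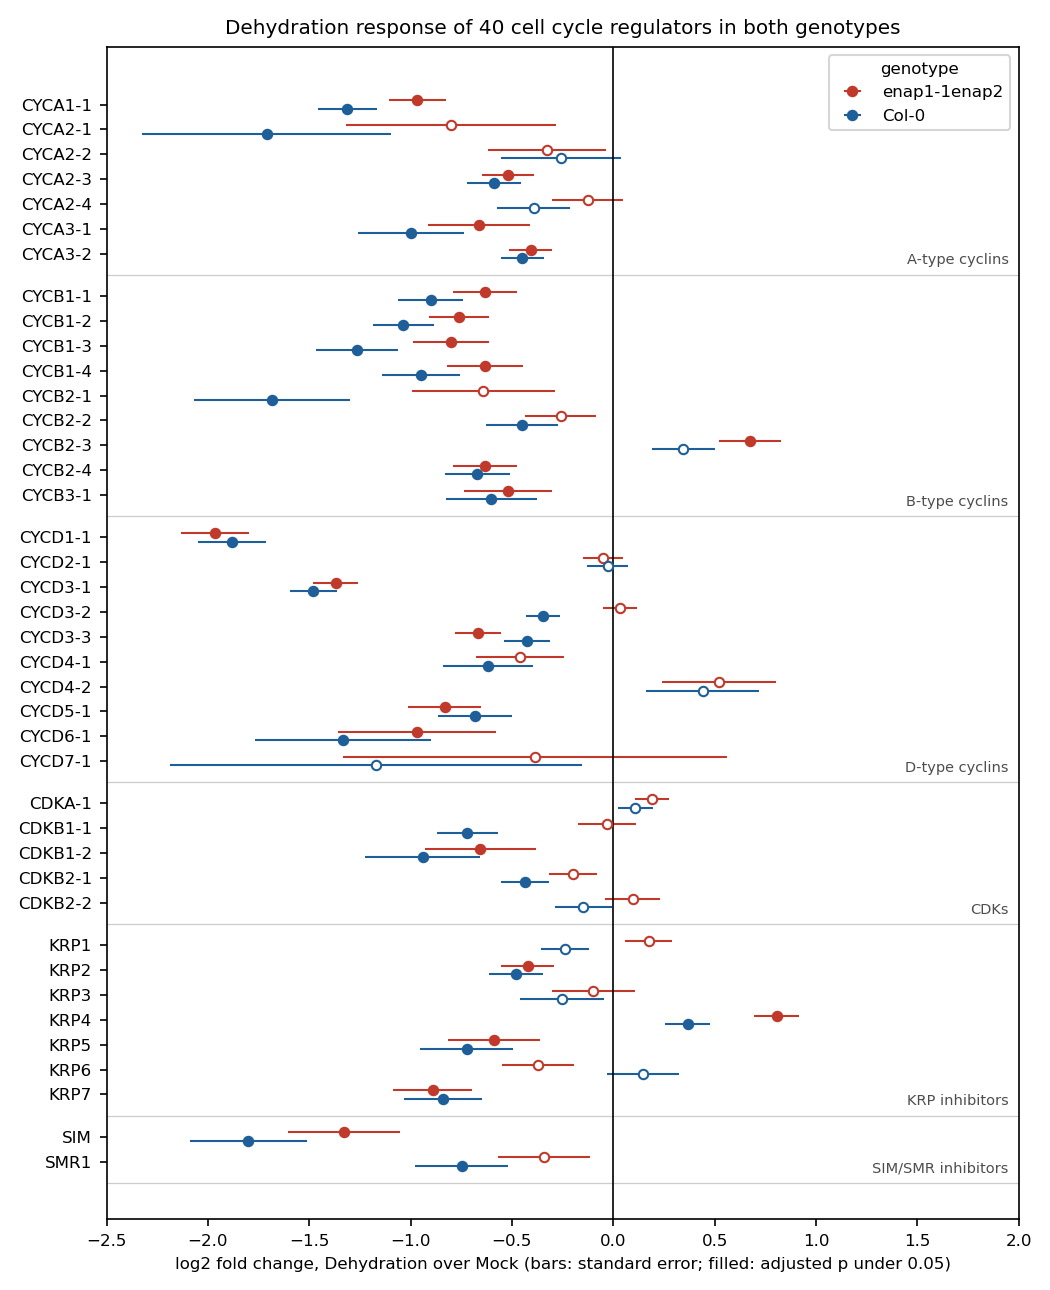
Log2 fold change, Dehydration over Mock, of the 40 members tested (x axis, with standard errors as bars), in enap1-1enap2 (red, upper) and Col-0 (blue, lower), grouped by class, where filled points have an adjusted p under 0.05. Most cyclins lie left of 0 in both genotypes, CYCD1-1, CYCD3-1 and SIM lie furthest left in enap1-1enap2, and KRP4 lies right of 0 in both.

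All 20 members that fell in enap1-1enap2 also fell in Col-0, which is 71.4% of those that fell in Col-0. Over all genes tested, 74.7% of those that fell in enap1-1enap2 fell in Col-0 and 80.8% of those that fell in Col-0 fell in enap1-1enap2, so sharing was common beyond the members. In Col-0 8 more members passed that did not in enap1-1enap2 (CYCA2-1, CYCB2-1, CYCB2-2, CYCD3-2, CYCD4-1, CDKB1-1, CDKB2-1 and SMR1). KRP4 rose in both genotypes, CYCB2-3 rose in enap1-1enap2, and 10 members passed in neither. Over the 40 members the changes in the 2 genotypes, which share no libraries, had a Pearson r of 0.867 and a Spearman rho of 0.861, given as a description across genes, against 0.797 and 0.825 over all genes tested. The log2 fold change was lower in Col-0 than in enap1-1enap2 for 33 of the 40 members and for 51.4% of all genes tested. For 2 of these members the difference itself passed the test, as described further on.

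Promoter motifs, which were not used to choose the members, differed by class, and the MYB3R element was most frequent in the B-type cyclins. In the 300 bases from 250 before to 50 after the transcript start (RefSeq, TAIR10.1, where all 41 members have the start and end that the count table gives), the pentamer AACGG, core of the MYB3R element, was found on either strand in 8 of 9 B-type cyclins and in 24.7% of the 27443 protein-coding genes. The longer form CNAACGG, which contains AACGG, was found in 7 of 9 B-type cyclins, in CYCA1-1 and in no other member, against 5.52% of all promoters. AACGG was also in 5 of 7 KRP promoters, 3 of 7 A-type cyclins, 1 of 10 D-type cyclins and 1 of 5 CDKs. TTTNNCGC, bound by E2F factors at the start of S phase, was found in CYCD3-2 and CYCD3-3 only, against 7.41% of all promoters. ACGTG, core of the abscisic acid response element, was found in 10 of 41 members and in 26.7% of all promoters. The spaced palindrome CTT, any 7 bases, AAG, bound by the DNA damage factor SOG1, was in 8 of 41 members and in 11.8% of all. A match is a description of the letters and not evidence of binding.

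Printed 5′ to 3′ along the gene are 3 B-type promoters that differ in their matches and in their response, and the promoters of the 2 members whose response differed between the genotypes, with AACGG (or CCGTT on the other strand) and TTTNNCGC (or its complement) in capitals. CYCB1-2 (chr5:1861654-1861953, minus strand) has 5 AACGG and fell in both genotypes, CYCB2-3 (chr1:7137779-7138078, minus strand) has 3 and rose in enap1-1enap2, and CYCB2-4 (chr1:28630740-28631039, minus strand) has none and fell in both. CDKB1-1 (chr3:20059421-20059720, plus strand) has neither motif, and CYCD3-2 (chr5:26835889-26836188, plus strand) has 1 TTTNNCGC.
CYCB1-2: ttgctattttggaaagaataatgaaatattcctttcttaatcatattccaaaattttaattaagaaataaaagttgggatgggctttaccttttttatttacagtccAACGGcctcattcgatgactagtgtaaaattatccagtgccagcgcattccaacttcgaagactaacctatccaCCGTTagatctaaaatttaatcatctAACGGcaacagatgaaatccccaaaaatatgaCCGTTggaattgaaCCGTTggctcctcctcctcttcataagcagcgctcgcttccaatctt
CYCB2-3: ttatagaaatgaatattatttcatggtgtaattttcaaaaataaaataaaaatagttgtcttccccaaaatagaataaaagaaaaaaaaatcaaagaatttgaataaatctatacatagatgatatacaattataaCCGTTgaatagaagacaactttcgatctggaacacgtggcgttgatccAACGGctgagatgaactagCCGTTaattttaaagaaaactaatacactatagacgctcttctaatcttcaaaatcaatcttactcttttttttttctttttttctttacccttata
CYCB2-4: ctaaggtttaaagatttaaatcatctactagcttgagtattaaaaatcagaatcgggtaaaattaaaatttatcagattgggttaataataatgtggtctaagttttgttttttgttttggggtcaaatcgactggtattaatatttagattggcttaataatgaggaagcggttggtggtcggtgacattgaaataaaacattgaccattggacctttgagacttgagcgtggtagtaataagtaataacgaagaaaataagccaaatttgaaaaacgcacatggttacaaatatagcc
CDKB1-1: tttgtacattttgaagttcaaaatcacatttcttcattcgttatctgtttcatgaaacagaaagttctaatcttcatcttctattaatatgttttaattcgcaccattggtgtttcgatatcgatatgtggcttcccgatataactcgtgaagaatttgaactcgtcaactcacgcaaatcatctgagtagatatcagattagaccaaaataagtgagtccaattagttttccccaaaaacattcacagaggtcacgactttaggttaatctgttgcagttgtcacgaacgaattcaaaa
CYCD3-2: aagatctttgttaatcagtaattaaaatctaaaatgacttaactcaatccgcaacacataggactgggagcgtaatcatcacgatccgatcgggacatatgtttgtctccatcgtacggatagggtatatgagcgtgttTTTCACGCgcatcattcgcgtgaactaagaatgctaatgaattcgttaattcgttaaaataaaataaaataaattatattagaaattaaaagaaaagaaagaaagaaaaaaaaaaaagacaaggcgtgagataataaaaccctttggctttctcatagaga

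The D-type cyclins held the largest fall of a member in each genotype, that of CYCD1-1. Of 10 members, 5 fell in enap1-1enap2 (32.4% of all genes fell) and 7 in Col-0 (30.0% of all genes), and none rose (32.2% and 29.7% of all genes rose). The median log2 fold change was -0.56 in enap1-1enap2 and -0.65 in Col-0. CYCD1-1, a D-type cyclin known for its role in the first divisions of the germinating root, had 5.17 and 7.04 CPM in enap1-1enap2 Dehydration against 23.1 and 24.2 CPM in enap1-1enap2 Mock (log2 fold change -1.97 ± 0.17, adjusted p = 4.6e-08). Col-0 seedlings had 6.49 and 8.28 CPM under Dehydration against 30.96 and 23.7 CPM under Mock (log2 fold change -1.88 ± 0.17, adjusted p = 1.1e-07). All 4 Dehydration libraries lay below all 4 Mock libraries, and the difference between the responses was -0.08 (95% interval -0.59 to 0.42). CYCD3-1, which links cytokinin and sugar to division in shoots, had 11.5 and 13.2 CPM in enap1-1enap2 Dehydration against 30.4 and 33.2 CPM in its Mock (log2 fold change -1.37 ± 0.11, adjusted p = 2.6e-08). The Col-0 libraries had 10.3 and 9.17 CPM under Dehydration and 27.02 and 27.2 CPM under Mock (log2 fold change -1.48 ± 0.12, adjusted p = 2.6e-08), again without overlap between the treatments. No other cyclin fell as far in enap1-1enap2, and in Col-0 CYCA2-1 and CYCB2-1 lay between the 2 at far lower counts.

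The other members of the CYCD3 subfamily had smaller changes than CYCD3-1. CYCD3-2 had means of 24.7 CPM per kb under Dehydration and 24.1 under Mock in enap1-1enap2, and 21.8 under Dehydration and 27.8 under Mock in Col-0. Its level was 41.6 and 41.4 CPM in enap1-1enap2 Dehydration against 41.4 and 39.6 CPM in enap1-1enap2 Mock, a change of 0.03 that did not pass (adjusted p = 0.75). In Col-0 it fell to 36.3 and 37.1 CPM under Dehydration, against 44.7 and 48.7 CPM under Mock (log2 fold change -0.35 ± 0.09, adjusted p = 0.0026). CYCD3-3 fell in both genotypes by smaller amounts (-0.67 in enap1-1enap2 and -0.43 in Col-0). CYCD6-1, which acts in the formative divisions of the root ground tissue, was near the lower end of the levels, with 1.09 and 0.880 CPM in enap1-1enap2 Dehydration against 2.11 and 1.76 CPM in its Mock (log2 fold change -0.97 ± 0.39, adjusted p = 0.04). Its levels in Col-0 were 0.722 and 0.467 CPM under Dehydration and 1.28 and 1.70 CPM under Mock (log2 fold change -1.33 ± 0.43, adjusted p = 0.015), and 393 of its 1610 exon bases lie in a gene on the other strand. CYCD6-1 lost its call in enap1-1enap2 with DESeq2 (0.057) and without any 1 of the 4 libraries of that genotype (adjusted p 0.073 to 0.2) and in Col-0 without replicate 2 of Mock (0.092) or of Dehydration (0.11). CYCD5-1 fell in both genotypes (-0.83 in enap1-1enap2 and -0.68 in Col-0) and CYCD4-1 passed in Col-0 (-0.62, against -0.46 in enap1-1enap2), where it no longer passed without either Mock library or replicate 2 of Dehydration (adjusted p 0.053 to 0.12). CYCD3-3 did not pass in Col-0 without replicate 2 of Dehydration (0.06). CYCD2-1 was level in all groups, with changes of -0.05 in enap1-1enap2 (95% interval -0.26 to 0.16) and -0.03 in Col-0 (-0.24 to 0.19). CYCD4-2 had positive changes that did not pass (0.52 and 0.44), and CYCD7-1, which acts in the last division of the guard mother cell, had only 0 to 14 counts per library and did not pass.

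**Figure D2:**
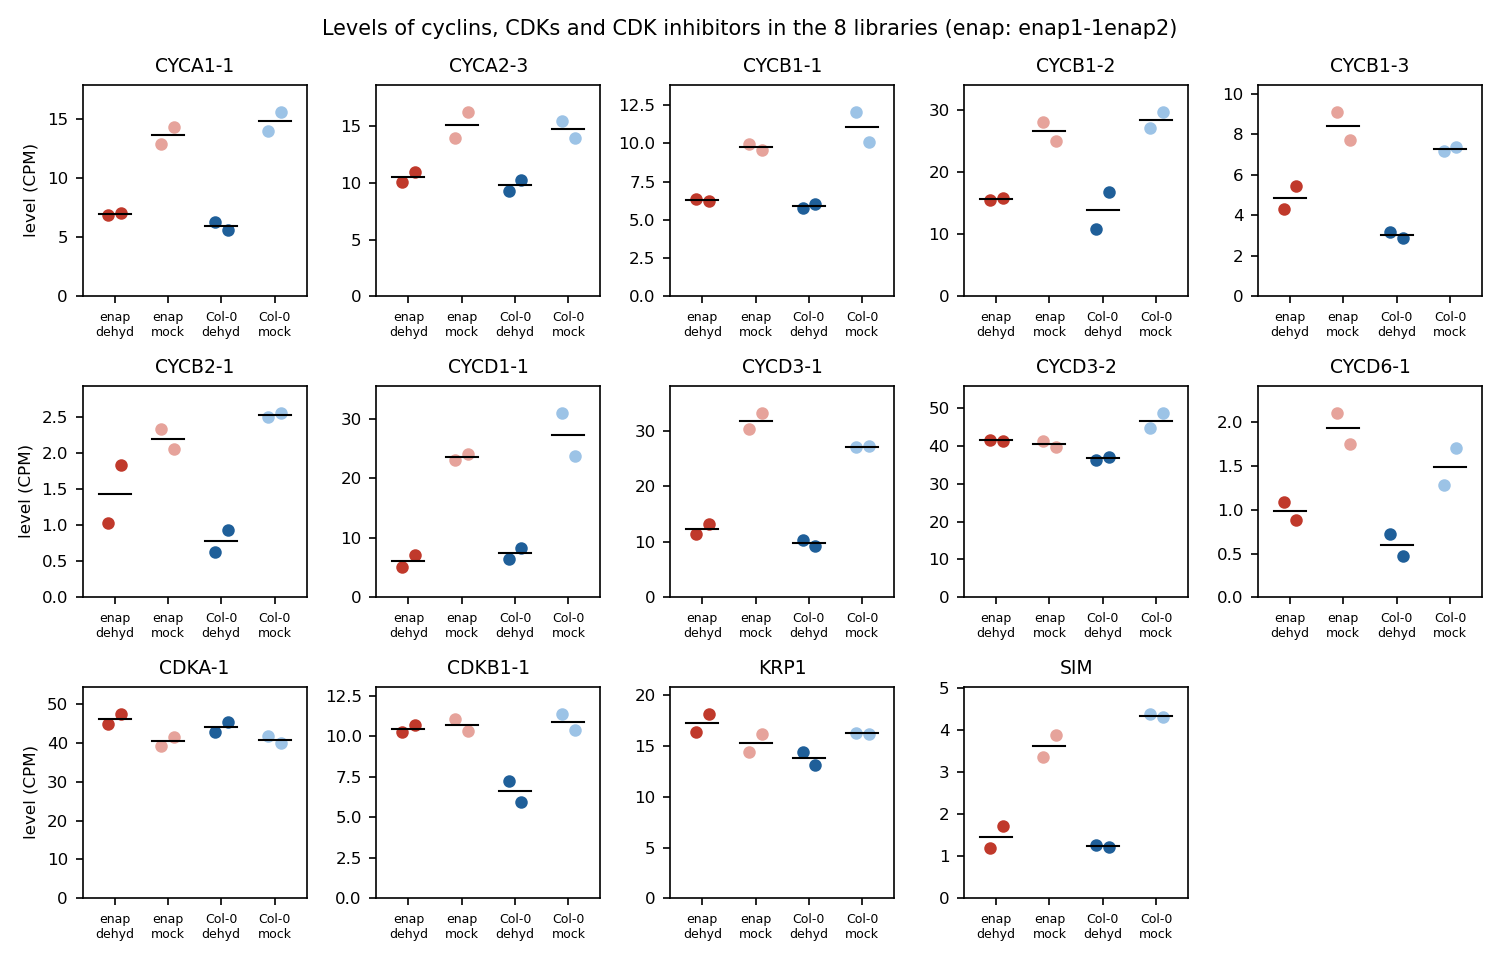
Levels (y axis, CPM, each panel from 0) of 14 members, with the 2 libraries of each group as points and their mean as a line, in enap1-1enap2 (enap, red) and Col-0 (blue), Dehydration dark and Mock light. CYCD1-1, CYCD3-1 and SIM are low in the 4 Dehydration libraries, CDKA-1 is level, and CDKB1-1 is low in the 2 Col-0 Dehydration libraries only.

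Among the mitotic B-type cyclins, 6 of 9 fell and 1 rose in enap1-1enap2, and 8 of 9 fell in Col-0. The shares of all genes were 32.4% fallen and 32.2% risen in enap1-1enap2, and 30.0% and 29.7% in Col-0. The 4 CYCB1 genes moved together: CYCB1-1, the cyclin most used as a reporter of the G2-to-M transition, had 6.36 and 6.23 CPM in enap1-1enap2 Dehydration against 9.97 and 9.54 CPM in its Mock (log2 fold change -0.63 ± 0.16, adjusted p = 0.0022). In Col-0 it had 5.77 and 6.03 CPM under Dehydration against 12.03 and 10.05 CPM under Mock (log2 fold change -0.90 ± 0.16, adjusted p = 0.00016). The treatments did not overlap in either genotype. CYCB1-2 had 15.6 and 15.8 CPM in enap1-1enap2 Dehydration against 28.1 and 24.96 CPM in its Mock (log2 fold change -0.76 ± 0.15, adjusted p = 0.00032). Col-0 seedlings had 10.8 and 16.8 CPM under Dehydration against 27.1 and 29.6 CPM under Mock (log2 fold change -1.04 ± 0.15, adjusted p = 2.5e-05), so that the Dehydration libraries differed more from each other than the Mock libraries did. CYCB1-2 shares 20.6% of its 31-base stretches of exon with other places in the genome, among them the cyclin gene AT1G34460 (19 to 62 counts per library), so its reads may be split or lost in part. CYCB1-3 had 4.29 and 5.42 CPM in enap1-1enap2 Dehydration against 9.09 and 7.71 CPM in its Mock (log2 fold change -0.80 ± 0.19, adjusted p = 0.0016). The Col-0 libraries had 3.16 and 2.89 CPM under Dehydration against 7.15 and 7.38 CPM under Mock (log2 fold change -1.27 ± 0.20, adjusted p = 6.1e-05), and the Dehydration libraries of Col-0 lay below those of enap1-1enap2. CYCB1-4 fell by similar amounts (-0.63 in enap1-1enap2 and -0.95 in Col-0), and in enap1-1enap2 it did not pass without replicate 1 of Dehydration (adjusted p = 0.15).

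The CYCB2 genes did not move as a group. CYCB2-1 had 1.03 and 1.83 CPM in enap1-1enap2 Dehydration against 2.33 and 2.06 CPM in its Mock, which did not pass (log2 fold change -0.64 ± 0.35, adjusted p = 0.12). Its levels in Col-0 were 0.631 and 0.934 CPM under Dehydration against 2.51 and 2.55 CPM under Mock (log2 fold change -1.68 ± 0.39, adjusted p = 0.0015). These are low levels, with 14 to 126 counts per library, and the difference between the responses was 1.04 (95% interval -0.08 to 2.16, adjusted p = 0.2). CYCB2-3 went the other way from the rest of the class, with 13.7 and 15.6 CPM in enap1-1enap2 Dehydration against 10.4 and 7.78 CPM in its Mock (log2 fold change 0.67 ± 0.15, adjusted p = 0.0011). In Col-0 it had 11.6 and 11.1 CPM under Dehydration and 8.56 and 9.32 CPM under Mock, which did not pass (log2 fold change 0.35 ± 0.15, adjusted p = 0.066). All 4 Dehydration libraries of CYCB2-3 lay above all 4 Mock libraries. Of its 31-base exon stretches 20.3% are repeated, mostly in the cyclin-like neighbour AT1G20590, which had 0 to 8 counts. CYCB2-4 fell in both genotypes (-0.63 in enap1-1enap2 and -0.67 in Col-0), and in enap1-1enap2 it was at the threshold without replicate 1 of Dehydration (adjusted p = 0.05). CYCB3-1 also fell in both (-0.52 and -0.60), but did not pass in enap1-1enap2 with DESeq2 (0.062), without either Mock library or without replicate 1 of Dehydration (0.08 to 0.35), nor in Col-0 without replicate 1 of Mock or either Dehydration library (0.087 to 0.11). CYCB2-2 fell in Col-0 (log2 fold change -0.45 ± 0.18, adjusted p = 0.04), a call that was lost with DESeq2 (0.07), without either Mock library of either genotype and without replicate 1 of Col-0 Dehydration (adjusted p up to 0.2).

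The 7 A-type cyclins among the members fell or did not pass, and none had a positive change. Over all genes tested, 49.7% of the changes were positive in enap1-1enap2 and 48.3% in Col-0. In enap1-1enap2, 4 of 7 fell (32.4% of all genes) and in Col-0 5 of 7 (30.0% of all genes), with median log2 fold changes of -0.52 and -0.59. CYCA1-1, expressed in cells about to divide, had 6.87 and 7.04 CPM in enap1-1enap2 Dehydration against 12.9 and 14.3 CPM in its Mock (log2 fold change -0.97 ± 0.14, adjusted p = 1.9e-05). Col-0 seedlings had 6.31 and 5.60 CPM under Dehydration against 13.99 and 15.6 CPM under Mock (log2 fold change -1.31 ± 0.15, adjusted p = 1.3e-06). It is the only A-type cyclin past the 2-fold call, in Col-0. CYCA2-1 had a larger fall there but missed the call on its unadjusted p (0.014 in edgeR's test). CYCA2-3, which with CDKB1-1 holds back endoreplication, had 10.13 and 10.9 CPM in enap1-1enap2 Dehydration against 14.01 and 16.3 CPM in its Mock (log2 fold change -0.52 ± 0.13, adjusted p = 0.0024). The Col-0 libraries had 9.34 and 10.2 CPM under Dehydration against 15.5 and 13.98 CPM under Mock (log2 fold change -0.59 ± 0.13, adjusted p = 0.0013), without overlap in either genotype. CYCA3-1 and CYCA3-2, which act around the start of S phase, also fell in both (-0.66 and -0.41 in enap1-1enap2, -0.997 and -0.45 in Col-0). CYCA3-1 did not pass in enap1-1enap2 without either Mock library or replicate 1 of Dehydration (adjusted p 0.087 to 0.23), nor in Col-0 without replicate 1 of Dehydration (0.055). CYCA2-1 passed in Col-0 on 6 to 54 counts per library (log2 fold change -1.71 ± 0.61, adjusted p = 0.025), and lost the call without replicate 1 of Col-0 Mock or without either Col-0 Dehydration library (0.061 to 0.13). CYCA2-2 and CYCA2-4 passed in neither genotype.

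Of the 5 kinases 1 fell in enap1-1enap2 (32.4% of all genes fell) and 3 in Col-0 (30.0% of all genes), and none rose (32.2% and 29.7% of all genes rose). CDKA-1, the only Arabidopsis CDK of its type and required throughout the cycle, had the highest mean level per length of all members in each group except Col-0 Mock, where CYCD3-2 was slightly higher (CDKA-1 means of 30.8 and 26.96 CPM per kb in enap1-1enap2 Dehydration and Mock, 29.4 and 27.3 in Col-0 Dehydration and Mock). It had 44.8 and 47.4 CPM in enap1-1enap2 Dehydration against 39.3 and 41.5 CPM in its Mock (log2 fold change 0.19 ± 0.09, adjusted p = 0.062). Its levels in Col-0 were 42.8 and 45.3 CPM under Dehydration and 41.8 and 39.99 CPM under Mock (log2 fold change 0.11 ± 0.09, adjusted p = 0.29). Neither change passed, with unadjusted 95% intervals of 0.01 to 0.37 in enap1-1enap2 and -0.07 to 0.29 in Col-0. CDKB1-2 fell in both genotypes (log2 fold change -0.66 ± 0.27, adjusted p = 0.047 in enap1-1enap2, log2 fold change -0.94 ± 0.28, adjusted p = 0.0098 in Col-0). Its call was lost in enap1-1enap2 with DESeq2 (0.055), without either Mock library or without replicate 1 of Dehydration (0.053 to 0.37), and in Col-0 without replicate 1 of Dehydration (0.086). CDKB2-1 fell in Col-0 (-0.43, against -0.20 in enap1-1enap2) and CDKB2-2 passed in neither (0.10 and -0.15).

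CDKB1-1 was the member with the clearest difference between the genotypes. The gene lies at chr3:20059671-20061488 on the plus strand, and 71 of its 1379 exon bases overlap a gene on the other strand. It had 10.2 and 10.7 CPM in enap1-1enap2 Dehydration against 11.04 and 10.3 CPM in enap1-1enap2 Mock, a change of -0.03 (95% interval -0.34 to 0.28) that did not pass. In Col-0 it fell to 7.26 and 5.94 CPM under Dehydration, against 11.4 and 10.4 CPM under Mock (log2 fold change -0.72 ± 0.15, adjusted p = 0.00075). Only the Col-0 Dehydration libraries stood apart, and those of the other 3 groups overlapped one another. The difference between the responses, enap1-1enap2 minus Col-0, was 0.69 ± 0.21 on the log2 scale (adjusted p = 0.035). Under dehydration CDKB1-1 was higher in enap1-1enap2 than in Col-0 (log2 fold change 0.66 ± 0.15, adjusted p = 0.009), a call that was lost without replicate 2 of either Dehydration group (0.093 without that of Col-0, 0.058 without that of enap1-1enap2). Under mock the difference was -0.02 (95% interval -0.33 to 0.28).

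The second such member was CYCD3-2 (chr5:26836139-26839597, plus strand), whose levels are given above. Its difference between the responses was 0.38 ± 0.12 (adjusted p = 0.043), a smaller value than for CDKB1-1 on a more abundant transcript. Of all genes tested, 8.07% had a higher and 8.76% a lower response in enap1-1enap2, so 2 of 40 members is below the background in either direction. Both calls are near the threshold: with DESeq2 the adjusted p was 0.066 for CYCD3-2 and 0.055 for CDKB1-1. With 1 library left out at a time, CYCD3-2 passed without replicate 1 of Col-0 Mock (0.015) and did not without each of the other 7 (0.075 to 0.17). CDKB1-1 passed without replicate 2 of Col-0 Mock (0.027) and without replicate 1 of Col-0 Dehydration (0.033), and did not without any of the others (0.067 to 0.13).

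Few members passed the test between the genotypes within a treatment. Under mock no member passed in edgeR's test, where 3.47% of all genes were higher and 3.70% lower in enap1-1enap2, and DESeq2 also called 0. An unadjusted p under 0.05 was found under mock in 2 members (CYCD3-1 and CYCD3-2) and in 4647 of the 21614 genes tested. Under dehydration CDKB1-1 and CYCB1-3 were higher in enap1-1enap2 and none was lower, against 6.56% and 8.14% of all genes. CYCB1-3 (log2 fold change 0.68 ± 0.21, adjusted p = 0.04) did not pass with DESeq2 (0.053), in a fit of the 4 Dehydration libraries (0.074), without either enap1-1enap2 Mock library, either Col-0 Dehydration library or replicate 2 of enap1-1enap2 Dehydration (0.059 to 0.24). None passed the 2-fold call there (1.01% of all genes higher and 1.40% lower). In the same comparison 7 of the 40 members had an unadjusted p under 0.05, as did 6120 of the 21614 genes tested. The comparison under dehydration had a positive value in 33 of the 40 members with a median of 0.14, and in 50.7% of all genes with a median of 0.01. It shares the Dehydration libraries with the difference between the responses, where 33 of 40 members were also positive, so these are not separate observations. The mutated genes were themselves lower in enap1-1enap2 (adjusted p = 0.00037 under dehydration and 1e-05 under mock for ENAP1, 0.011 and 0.00075 for ENAP2). ENAP1 had 12.3 and 11.5 CPM in enap1-1enap2 Dehydration against 22.5 and 24.4 CPM in Col-0 Dehydration and 3.81 and 5.11 CPM in enap1-1enap2 Mock against 13.9 and 17.3 CPM in Col-0 Mock. ENAP2 had 4.06 and 4.93 CPM against 8.70 and 7.22 CPM under Dehydration and 3.10 and 3.51 CPM against 9.32 and 7.76 CPM under Mock, in the same order of genotypes.

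The KRP inhibitors divided into 3 that fell, 1 that rose and 3 that did not pass, in both genotypes. Among all genes 32.4% fell and 32.2% rose in enap1-1enap2, and 30.0% fell and 29.7% rose in Col-0. KRP2, KRP5 and KRP7 fell in both (-0.42, -0.59 and -0.89 in enap1-1enap2, -0.48, -0.72 and -0.84 in Col-0). KRP5 did not pass in enap1-1enap2 without any 1 of its 4 libraries (adjusted p 0.068 to 0.14) nor in Col-0 without replicate 1 of Mock (0.071) or replicate 2 of Dehydration (0.11). KRP2 did not pass in enap1-1enap2 without replicate 1 of Mock (0.065) or of Dehydration (0.074), nor in Col-0 without replicate 2 of Dehydration (0.087). KRP1, the founding member of the family, had 16.4 and 18.2 CPM in enap1-1enap2 Dehydration against 14.5 and 16.2 CPM in its Mock (log2 fold change 0.17 ± 0.12, adjusted p = 0.2). In Col-0 it had 14.4 and 13.2 CPM under Dehydration and 16.3 and 16.2 CPM under Mock (log2 fold change -0.24 ± 0.12, adjusted p = 0.093). The signs of KRP1 differed between genotypes, but neither change passed, nor did their difference (0.41, adjusted p = 0.1). KRP4 rose, with 21.7 and 24.6 CPM in enap1-1enap2 Dehydration against 12.5 and 13.97 CPM in its Mock (log2 fold change 0.81 ± 0.11, adjusted p = 1.2e-05). Col-0 seedlings had 19.1 and 20.25 CPM under Dehydration against 15.5 and 15.02 CPM under Mock (log2 fold change 0.37 ± 0.11, adjusted p = 0.01), a call that was lost with upper quartile scaling (0.18), with library size alone (0.21) and without replicate 2 of Col-0 Dehydration (0.066). Of the 2391 exon bases of KRP4, 926 lie in AT2G32720 on the other strand. Part of its reads cannot be assigned if counting did not use the strand. KRP3 and KRP6 passed in neither genotype.

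Of the SIM/SMR inhibitors only 2 could be read. SIM, which gives the family its name and stops trichome cells from dividing, had 1.19 and 1.72 CPM in enap1-1enap2 Dehydration against 3.38 and 3.89 CPM in its Mock (log2 fold change -1.33 ± 0.28, adjusted p = 0.00061). The Col-0 libraries had 1.26 and 1.23 CPM under Dehydration against 4.39 and 4.32 CPM under Mock (log2 fold change -1.80 ± 0.29, adjusted p = 6.6e-05), and the 4 Dehydration libraries lay below the 4 Mock libraries. SIM thus fell past the 2-fold call in both genotypes beside CYCD1-1 and CYCD3-1. SMR1, which acts in giant cells of the sepal, fell in Col-0 (log2 fold change -0.75 ± 0.23, adjusted p = 0.011) and not in enap1-1enap2 (-0.34, adjusted p = 0.2), and the Col-0 call was lost without replicate 1 of Col-0 Dehydration (0.06). An opposite-strand gene covers 249 of 792 exon bases of SIM and 333 of 826 of SMR1. SMR5, a gene known to respond to reactive oxygen, had 0 counts in all 8 libraries. All 266 of its exon bases lie in exons of AT1G07510 on the other strand. If counting did not use the strand, which is not stated, reads there fit both genes and are counted for neither. This 0 therefore cannot be read as a lack of expression.

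**Figure D3:**
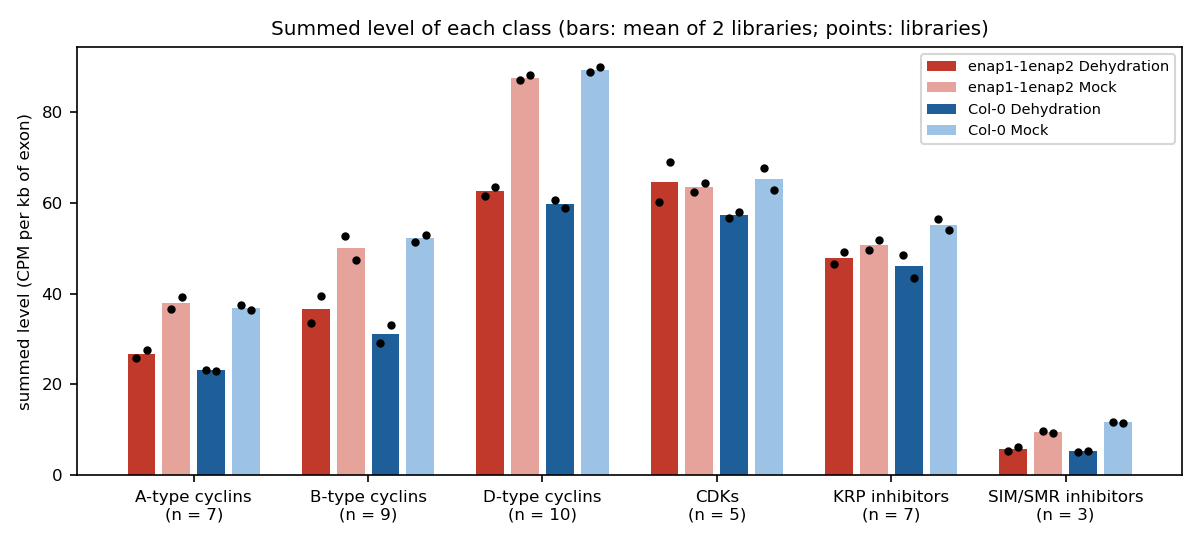
Summed level of each class (y axis, CPM per kb of exon) in the 4 groups, as the mean of 2 libraries (bars) with the libraries as points. The 3 cyclin classes and the SIM/SMR inhibitors are lower under Dehydration than under Mock in both genotypes, and the KRP inhibitors less so. The CDKs are lower in Col-0, while in enap1-1enap2 their Dehydration libraries lie on either side of Mock.

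Summed per length, the D-type cyclins gave 61.5 and 63.6 CPM per kb in enap1-1enap2 Dehydration against 87.1 and 88.1 in its Mock, and 60.7 and 58.9 in Col-0 Dehydration against 88.8 and 89.9 in its Mock. The B-type cyclins gave 33.5 and 39.6 CPM per kb in enap1-1enap2 Dehydration against 52.6 and 47.5 in its Mock, and 29.01 and 33.1 in Col-0 Dehydration against 51.4 and 52.96 in its Mock. In both classes the treatments did not overlap in either genotype. The same was so for the A-type cyclins, the KRP inhibitors and the SIM/SMR inhibitors, and for the CDKs in Col-0 only. The A-type cyclins gave 25.9 and 27.5 CPM per kb in enap1-1enap2 Dehydration against 36.6 and 39.3 in its Mock, and 23.3 and 22.9 in Col-0 Dehydration against 37.4 and 36.3 in its Mock. The CDKs gave 60.2 and 68.98 CPM per kb in enap1-1enap2 Dehydration, on either side of 62.5 and 64.4 in its Mock, and 56.7 and 57.9 in Col-0 Dehydration against 67.6 and 62.9 in its Mock. The KRP inhibitors gave 46.5 and 49.1 CPM per kb in enap1-1enap2 Dehydration against 49.6 and 51.9 in its Mock, and 48.6 and 43.5 in Col-0 Dehydration against 56.4 and 54.1 in its Mock, which is lower under Dehydration by less than in the cyclin classes. The SIM/SMR sum was 5.19 and 6.27 CPM per kb in enap1-1enap2 Dehydration against 9.79 and 9.16 in its Mock, and 5.03 and 5.36 in Col-0 Dehydration against 11.6 and 11.6 in its Mock. CDKA-1 makes up the largest share of the CDK sum. Bases shared with another gene may lower the level per length of KRP4, SIM and SMR1. Smaller shares of exon bases are shared in other members, among them CYCD6-1, CDKB1-2 (281 of 1532) and CDKB2-2 (192 of 1393).

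In other cell cycle genes, those of S phase fell nearly without exception. In the list of S phase and replication genes, 13 of 13 fell in enap1-1enap2 and 12 of 13 in Col-0, with medians of -1.22 and -0.95. The largest fall was that of PCNA1, the sliding clamp of DNA polymerase, with 8.27 and 8.30 CPM in enap1-1enap2 Dehydration against 30.9 and 34.3 CPM in its Mock (log2 fold change -1.97 ± 0.12, adjusted p = 5.9e-10), and log2 fold change -1.60 ± 0.12, adjusted p = 1.3e-08 in Col-0. In the list of mitosis and cytokinesis genes, 6 of 9 fell and 2 rose in enap1-1enap2, and 7 fell and 1 rose in Col-0. Over all genes 32.4% fell and 32.2% rose in enap1-1enap2, and 30.0% fell and 29.7% rose in Col-0. HINKEL, a kinesin of cytokinesis, fell most in enap1-1enap2 (-0.98) and AT1G63100 fell most in Col-0 (-0.996). AUR3, an Aurora kinase of the centromere, rose in both (log2 fold change 1.58 ± 0.21, adjusted p = 7.8e-06 in enap1-1enap2, log2 fold change 1.43 ± 0.21, adjusted p = 2.4e-05 in Col-0), and AUR2 rose in enap1-1enap2 (0.87).

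Of the 9 genes of the RBR1, E2F, DP and DEL list, 2 rose and 1 fell in enap1-1enap2, and 3 rose and 1 fell in Col-0; of all genes 32.2% rose and 32.4% fell in enap1-1enap2, and 29.7% rose and 30.0% fell in Col-0. E2FB, an activator at the start of S phase, had 17.9 and 19.7 CPM in enap1-1enap2 Dehydration against 6.78 and 5.23 CPM in its Mock (log2 fold change 1.63 ± 0.15, adjusted p = 8.8e-08), and rose in Col-0 as well (log2 fold change 1.51 ± 0.14, adjusted p = 2.6e-07). DEL1, an atypical E2F that holds back endoreplication, fell in both (-0.59 and -0.78). Of the 4 MYB3R genes, MYB3R5 and MYB3R3, which act as repressors, rose in both genotypes, MYB3R5 most (log2 fold change 1.53 ± 0.16, adjusted p = 5.8e-07 in enap1-1enap2, log2 fold change 1.61 ± 0.16, adjusted p = 3.1e-07 in Col-0), MYB3R4 fell in enap1-1enap2 (-0.44), and MYB3R1 rose in Col-0 (0.53).

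**Figure D4:**
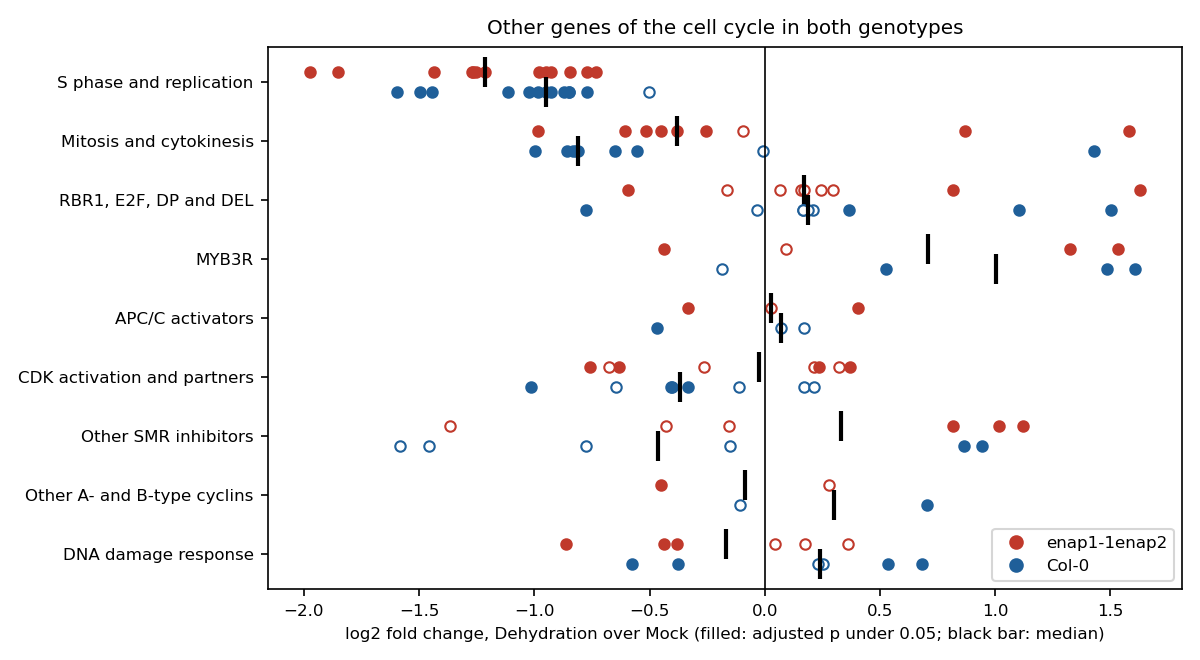
Log2 fold change, Dehydration over Mock (x axis), of the genes of 9 lists around the cyclins and CDKs (rows), in enap1-1enap2 (red, upper) and Col-0 (blue, lower), where filled points have an adjusted p under 0.05 and black bars are medians. The S phase list lies left of 0 throughout, and the MYB3R list holds the points furthest right beside E2FB and AUR3.

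Several markers of root, shoot and leaf tissues, only some of which hold dividing cells, moved with the treatment as well. For comparison, 32.4% of all genes fell in enap1-1enap2 and 30.0% in Col-0, and 32.2% and 29.7% rose. Of the 5 root tip markers 4 fell and WOX5 rose in enap1-1enap2 (1.24), and 3 fell and WOX5 rose in Col-0 (1.13). Their summed level was 37.5 to 37.97 CPM in enap1-1enap2 Dehydration against 67.4 to 70.4 CPM in its Mock, and 38.4 to 43.3 CPM in Col-0 Dehydration against 63.95 to 66.7 CPM in its Mock. PLT2 fell most in enap1-1enap2 (-1.51) and SHR in Col-0 (-1.24). All 6 stomatal lineage markers fell in both genotypes (EPF2 most, -1.23 and -1.38), with sums of 35.1 to 40.8 CPM in enap1-1enap2 Dehydration against 59.9 to 63.3 CPM in its Mock, and 44.9 to 49.5 CPM against 69.2 to 72.98 CPM in Col-0. Of 4 shoot meristem markers KNAT1 fell in both (-1.73 and -2.34), STM and CLV3 did not pass, WUS had 0 to 4 counts, and their sum was 5.52 to 6.54 CPM against 14.97 to 15.3 CPM in enap1-1enap2 and 4.78 to 5.18 CPM against 15.1 to 15.4 CPM in Col-0. KNAT1 carried the change in this sum, with means of 3.74 CPM under Dehydration against 12.5 under Mock in enap1-1enap2, and 2.32 against 11.7 in Col-0. The root hair genes RSL4 and EXPA7 were almost lost, with 0 and 2 counts of RSL4 in enap1-1enap2 Dehydration against 72 and 74 in its Mock, 0 and 0 in Col-0 Dehydration against 112 and 112 in its Mock, and a summed level of 0.258 to 0.563 CPM under Dehydration against 12.97 to 13.9 CPM under Mock in enap1-1enap2 and 0.271 to 0.425 against 12.2 to 15.8 CPM in Col-0. Of 3 lateral root markers only LBD16 was tested and it did not pass, and their sum was 0.982 to 1.83 CPM against 1.45 to 1.47 CPM in enap1-1enap2 and 1.02 to 1.35 CPM against 1.4998 to 2.43 CPM in Col-0. The green leaf genes went opposite ways, RBCS1A down (-1.05 and -0.77) and LHCB1.1 up (0.25 and 0.97), with sums, nearly all RBCS1A, of 4676 to 5117 CPM against 9637 to 9784 CPM in enap1-1enap2 and 6884 to 7109 CPM against 10078 to 11885 CPM in Col-0. The part of these tissue markers in the falls of the cyclins was not tested.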

How the data were processed

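Whole-seedling mRNA of 2 genotypes under 2 treatments was sequenced in 8 libraries, 2 per group. Per the labels and the study's methods the authors trimmed reads with Trim Galore 0.6.7, aligned them to TAIR10 and counted them per gene with featureCounts (Subread 2.0.1), and they compared groups with DESeq2 1.32.0. The deposited values are whole-number counts per gene, not normalized. The methods name bowtie2, while the column names in the file header have the form that STAR gives, so the aligner was not settled. No strand setting is given, and reads that fit more than 1 gene are lost. Mostly even counts in each library are what counting both mates of a pair gives, and halved counts were run as an alternative.

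Counts were analysed with edgeR 4.0.16 in R 4.3.3: filterByExpr by group, TMM scaling, 1 mean per group over all 8 libraries, quasi-likelihood tests and Benjamini-Hochberg adjustment over 21614 genes. SE was the absolute log2 fold change over the root of the F statistic. A floor of 3 counts equals 0.0608 to 0.135 CPM, which covers counting error only. Between replicates of a group the chi-square per degree of freedom was 2.85 to 28.2. Counting both mates of a pair raises this value by itself, so the 2.85 of enap1-1enap2 Mock may lie close to sampling noise. The other groups, at 6.78 to 28.2, differed beyond it. The members and gene lists were chosen with earlier results of these data known. By rule, values in every library are given for members past the interaction test or the 2-fold call and for 1 founding member per class (CYCA2-3, CYCB1-1, CYCD3-1, CDKA-1, CDKB1-1, KRP1 and SIM), and for each list the largest rise and fall in each genotype. CYCB2-3 and KRP4 were added after their values were seen, as were the other genes of the lists that are named. Promoters were cut from the RefSeq TAIR10.1 genome, and exon stretches of 31 bases were searched in it for repeats. Alternatives were other scalings and filters, DESeq2 1.42.0, other thresholds, subsets of libraries, a replicate block and each library left out. Protein features are not analysed here. The script was tested on simulated data.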

Additional observations from a re-analysis of the deposited data

Results flagged for a closer look

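In each of the following genes the dehydration response differed between enap1-1enap2 and Col-0 by edgeR's interaction test (adjusted p under 0.05), given as the log2 difference of the responses, enap1-1enap2 minus Col-0. Such calls were common: 8.07% of all genes tested had a higher response in enap1-1enap2 and 8.76% a lower one. Of the 60 genes tested in the other cell cycle lists, 5 were higher and 2 lower. Among the members the genes called were CDKB1-1 (0.69, adjusted p = 0.035) and CYCD3-2 (0.38, adjusted p = 0.043).

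Among the other cell cycle genes, AUR2, an Aurora kinase of the spindle and cell plate, differed by 0.88 (adjusted p = 0.0038), rising in enap1-1enap2 (0.87) with no change called in Col-0 (-0.01). CDC20.1, an activator of the anaphase-promoting complex, fell less in enap1-1enap2 (-0.45) than in Col-0 (-0.86), a difference of 0.41 (adjusted p = 0.047). CKS1, a small subunit that binds CDKs, rose in enap1-1enap2 (0.37) and fell in Col-0 (-0.40), and differed by 0.77 (adjusted p = 0.0037). RNR1, the large subunit of ribonucleotide reductase, fell further in enap1-1enap2 (-1.44) than in Col-0 (-0.95), a difference of -0.48 (adjusted p = 0.0091). MYB3R1 had -0.43 (adjusted p = 0.044), with 0.09 in enap1-1enap2 and a rise in Col-0 (0.53). Of the list of other SMR inhibitors, AT5G02420 differed by 1.59 (adjusted p = 0.024) and AT1G10690 by 1.27 (adjusted p = 0.018).

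Outside the cell cycle the light-harvesting gene LHCB1.1 had -0.72 (adjusted p = 0.0037), FAMA of the stomatal lineage had -0.55 (adjusted p = 0.045), and ENAP1 itself had 0.85 (adjusted p = 0.013). Causes were not tested for any of these.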

How the results depend on the processing

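None of the 55 member values that passed a test changed direction under an alternative, and those that did not pass were not followed. With 2 libraries per group, the calls of low-count members and those between genotypes are the least precise. With upper quartile scaling and with library size alone, 5 members fell past the 2-fold call in enap1-1enap2 and 14 in Col-0, and 0 rose in Col-0. Relative to TMM these settings moved the median of all genes by -0.163 and -0.165 (log2) in enap1-1enap2 and by -0.186 and -0.182 in Col-0, and the share of calls that were rises, 49.8% in each genotype with TMM, to 39.8% and 39.6% in enap1-1enap2 and to 36.3% and 36.5% in Col-0. DESeq2 called 0 members in the interaction and 1 between genotypes under dehydration. The count between genotypes was also 1 in a fit of the 4 Dehydration libraries, with halved counts and at an adjusted p under 0.01. At that threshold 0 rose in Col-0 and 0 passed the interaction. At an absolute log2 fold change over 0.58 in place of 1, 12 members fell and 2 rose in enap1-1enap2, 19 fell in Col-0 and 2 were higher in enap1-1enap2 under dehydration, and over 1.5 the falls were 1 in enap1-1enap2 and 3 in Col-0.

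Over all genes tested, the deviations of same-numbered libraries correlated with r of -0.063 to 0.076. This value over all genes cannot show whether they share a day or a culture, which the labels do not give. With a replicate block 18 members fell (CYCB3-1 and CYCD6-1 no longer passed) and 2 rose in enap1-1enap2, 28 fell and 1 rose in Col-0, 1 passed the interaction and 1 was higher in enap1-1enap2 under dehydration.

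With each library left out in turn, 13 to 21 members fell in enap1-1enap2 (fewest without replicate 1 of its Dehydration group), 3 to 5 of them past the 2-fold call (5 without replicate 2 of that group), and 21 to 28 fell in Col-0, where 0 to 1 rose (0 without replicate 2 of Col-0 Dehydration). Between 0 and 1 member passed the interaction and 0 to 2 were higher in enap1-1enap2 under dehydration.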

Other observations

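The remaining lists around the CDKs moved in mixed ways, where 32.2% of all genes rose and 32.4% fell in enap1-1enap2, and 29.7% rose and 30.0% fell in Col-0. Of the 8 genes of the list of CDK activation and partners, CKS1 and CDKF-1, a kinase that activates CDK-activating kinases, rose in enap1-1enap2 (0.37 and 0.23), and CYCH;1 and CKS2 fell there (-0.76 and -0.63). In Col-0 none rose, and CKS2 (-1.02), CKS1 (-0.40) and CYCH;1 (-0.33) fell. Of the 3 activators of the anaphase-promoting complex, CCS52A2 rose and CCS52A1 fell in enap1-1enap2 (0.41 and -0.33), and CCS52B fell in Col-0 (-0.47).

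Of the further inhibitors of the SIM/SMR type none passed as a fall, though some changes were negative. Their median log2 fold change was 0.33 in enap1-1enap2 and -0.46 in Col-0, with lowest values of -1.37 and -1.58. Counts were low in SMR4 (2 to 48 per library) and SMR7 (4 to 28). Of all genes tested, 32.2% rose and 32.4% fell in enap1-1enap2, and 29.7% rose and 30.0% fell in Col-0. Of 6 such genes, 3 rose in enap1-1enap2, led by AT1G10690 with 5.58 and 6.47 CPM in enap1-1enap2 Dehydration against 2.44 and 3.13 CPM in its Mock (log2 fold change 1.12 ± 0.24, adjusted p = 0.00063). In Col-0, 2 rose, led by AT5G40460 (log2 fold change 0.94 ± 0.34, adjusted p = 0.024), and AT1G08180 rose in both genotypes (1.02 in enap1-1enap2 and 0.86 in Col-0). Of 3 further A-type cyclins, CYCA3-4 fell in enap1-1enap2 (-0.45), CYCA1-2 rose in Col-0 (0.71), and CYCA3-3 had 0 counts in every library.

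Of the 6 DNA damage genes, 3 fell in enap1-1enap2 (32.4% of all genes), BRCA1 most (-0.86). In Col-0 2 fell (30.0% of all genes), BRCA1 most (-0.58), and 2 rose (29.7% of all genes), GMI1 most (0.68).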
